A study of Mus musculus with 2 samples.

Results

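The miR-181 family of the mouse was described here in the calf muscle of young mice. Its 6 genes, Mir181a-1, Mir181b-1, Mir181a-2, Mir181b-2, Mir181c and Mir181d, were taken by their symbols from a table of 2202 microRNA genes, and all 6 were found. They lie in 3 genomic clusters, each holding a pair of genes. Small RNA under 30 nt had been sequenced from gastrocnemius of male mice at 14 days of age, all of the B6CASTF1/J cross between C57BL/6 and CAST/EiJ. There was 1 group with 2 biological replicates, 1 library each, and no treatment, mutant, second tissue or second age. Both libraries carry the same donor identifier and a label that mentions several males, so a replicate may be 1 animal or several pooled. The spread between these 2 libraries may therefore be partly technical, and in whole tissue fewer cells of a type and less RNA per cell cannot be told apart.

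A microRNA gene is transcribed into a hairpin, from which short mature microRNAs are cut from the 5′ arm, the 3′ arm or both. The seed, bases 2 to 8 of the mature strand, does most of the pairing with messenger RNAs, so microRNAs that share a seed share many possible targets. In mice, miR-181a is known for setting how strongly developing T cells respond to antigen. In mouse muscle cells, miR-181 is known to rise when myoblasts differentiate and to repress the homeobox gene Hoxa11, a repressor of that step. In rat heart muscle cells, miR-181c has been found in mitochondria, where it acts on a mitochondrial transcript.

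The mature sequences show what makes these genes a family and why their counts need care. RefSeq lists the 5′ arm of all 6 genes on mm10 coordinates, in 4 different sequences with 1 common seed, printed in capitals.
miR-181a-5p: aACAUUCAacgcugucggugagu
miR-181b-5p: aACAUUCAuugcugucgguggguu
miR-181c-5p: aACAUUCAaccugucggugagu
miR-181d-5p: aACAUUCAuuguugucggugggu
The seed ACAUUCA was found in 6 members and in 0 other genes of the RefSeq microRNA table. miR-181a-5p and miR-181c-5p are 1 base change apart and miR-181b-5p and miR-181d-5p 2, counting insertions and deletions, while every other pair is 4 or 5 apart. The family thus falls into an a and c type and a b and d type, and each genomic cluster holds 1 gene of each type.

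The 3′ arms are different in each gene, which matters because they can be traced to 1 locus. Seeds are again in capitals.
miR-181a-1-3p: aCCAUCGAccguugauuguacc
miR-181c-3p: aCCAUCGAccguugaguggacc
miR-181a-2-3p: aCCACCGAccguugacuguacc
miR-181b-1-3p: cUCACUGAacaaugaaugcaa
miR-181b-2-3p: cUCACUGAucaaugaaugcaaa
miR-181d-3p: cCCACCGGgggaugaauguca
The 3′ arms of Mir181a-1 and Mir181c share a seed, as do those of Mir181b-1 and Mir181b-2, and the other two have a seed found in no other member. None of these 3′ seeds was found in another gene of the table. Between the arms the hairpins have 14 bases in Mir181b-2, 16 in Mir181b-1, 17 in Mir181a-1 and in Mir181c, 18 in Mir181d and 21 in Mir181a-2.

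The miR-181a and miR-181b hairpins each exist at a pair of loci, and the stretch they have in common is longer than the mature microRNA. RefSeq hairpins on mm10 are given with the longest stretch shared with the other copy in capitals.
Mir181a-1: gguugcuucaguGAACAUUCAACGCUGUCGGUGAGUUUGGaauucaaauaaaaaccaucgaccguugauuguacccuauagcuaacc
Mir181a-2: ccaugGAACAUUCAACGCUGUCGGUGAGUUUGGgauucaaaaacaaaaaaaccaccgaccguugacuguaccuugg
Mir181b-1: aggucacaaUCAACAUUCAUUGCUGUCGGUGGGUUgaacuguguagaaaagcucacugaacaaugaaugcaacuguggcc
Mir181b-2: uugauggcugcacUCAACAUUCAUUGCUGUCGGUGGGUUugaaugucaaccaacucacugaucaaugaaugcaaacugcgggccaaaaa
The shared stretch is 28 bases in the miR-181a pair and 26 bases in the miR-181b pair. In the deposited tables a read with several mapping sites is counted under no gene, and the counts do not separate the arms of a hairpin. A read that starts at the first base of miR-181a-5p must be 28 bases long before it occurs in only 1 of the 2202 hairpins, which is 5 bases more than the mature microRNA of 23. For miR-181b-5p the length is 25 bases, 1 more than the mature 24. The 5′ arms of Mir181c and Mir181d are found in 1 hairpin from 11 and 12 bases on, and all 6 of the 3′ arms from 9 to 16 bases on. In windows of 22 bases, 100% of Mir181c and Mir181d occur in no other hairpin, against 87.3% to 92.6% in the other members, and 50.9% of all 2202 hairpins have every window to themselves. The search covered annotated microRNA hairpins on both strands and not the rest of the genome. An exact mature miR-181a-5p or miR-181b-5p read is thus in no gene's count, and the counts of these 4 genes do not show how far the microRNAs are expressed.

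**Figure D1:**
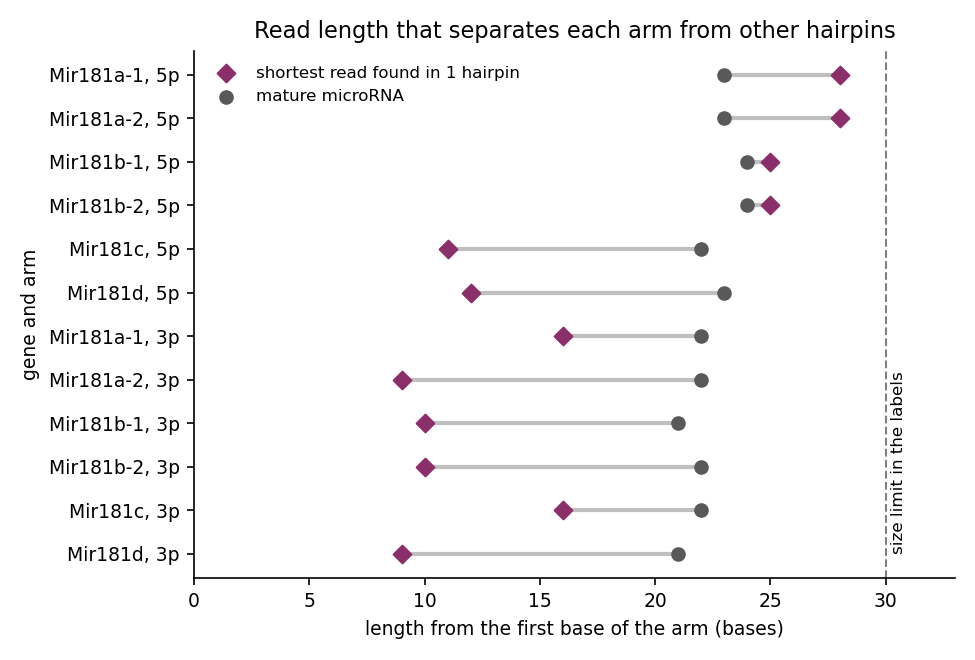
Length in bases of each mature microRNA (circles) and of the shortest read, from the arm's first base, that occurs in only 1 of 2202 annotated hairpins (diamonds), for the 12 arms of the 6 genes. Only the 5′ arms of Mir181a-1 and Mir181a-2 (28 bases) and of Mir181b-1 and Mir181b-2 (25 bases) need more than the mature length; the dashed line is the 30 nt limit in the labels.

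On mm10, Mir181a-1 (ENSMUSG00000065565.1) lies on chromosome 1 from 137966455 to 137966541 on the plus strand, and Mir181b-1 (ENSMUSG00000065458.1) follows 97 bases on, from 137966639 to 137966718. Both are inside an intron of the noncoding gene Gm4258 and overlap an exon of the long noncoding RNA A430106G13Rik, both on the same strand, and lie inside an intron of the noncoding gene Gm26936 on the opposite strand. Mir181a-2 (ENSMUSG00000065423.1) lies on chromosome 2 from 38852735 to 38852810 and Mir181b-2 (ENSMUSG00000065578.1) from 38853830 to 38853918, with 1019 bases between them. They are on the plus strand inside an intron of Nr6a1, an orphan nuclear receptor gene transcribed from the opposite strand, and Mir181b-2 also overlaps an exon of Gm44144 on that strand. Mir181c (ENSMUSG00000065483.2, 84178873 to 84178961) and Mir181d (ENSMUSG00000076338.1, 84178716 to 84178787) lie 85 bases apart on the minus strand of chromosome 8, inside an intron of Nanos3, which encodes an RNA-binding protein of germ cells, on the same strand.

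Own-strand counts over all microRNA genes came to 2743657 in replicate 1 and 2211254 in replicate 2. Reads with several mapping sites were more numerous, at 4421485 in replicate 1 (44.0% of its reads) and 4266018 in replicate 2 (52.1%). The level used here is CPM (counts-per-million), a gene's own-strand count scaled by that total. Intervals are 95% exact Clopper-Pearson intervals, and they cover counting error only, since reads copied by PCR are not independent molecules. A count of 0 allows up to 3 counts, 1.09 CPM in replicate 1 and 1.36 CPM in replicate 2. The label of the tissue was checked by 9 microRNA genes of striated muscle. All 9 had a count, and together they held 6.95% and 6.92% of counts in replicates 1 and 2, nearly all of it Mir206 at 68288 and 67909 CPM. Mir1a-1 and Mir1a-2 share a mature sequence and a stretch of 28 bases, and Mir133a-1 and Mir133a-2 a mature sequence and 31 bases. Exact reads of these shared sequences are in no gene's count, so the counts do not order the muscle microRNAs by expression.

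The miR-181 family held 6485 counts in replicate 1, or 0.236% of all counts (interval 0.231 to 0.242), and 5059 in replicate 2, or 0.229% (0.223 to 0.235). The mean was 0.233% ± 0.00536 (SD, n = 2). The chromosome 8 cluster gave the most, with 53.5% ± 2.37 of the family's counts, ahead of 34.5% ± 2.73 from chromosome 2 and 12.0% ± 0.358 from chromosome 1. The order of the 3 clusters was the same in both libraries. Exact mature 5′ reads of the chromosome 1 and chromosome 2 genes are in no gene's count. The family's share and the order of its clusters are therefore of counts and not of expression. None of the 6 genes had a count on the opposite strand.

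In the chromosome 8 cluster, whose microRNAs can be counted from either arm, Mir181c was at 692 CPM in replicate 1 (1899 counts, interval 661 to 724) and 539 CPM in replicate 2 (1191 counts, 508 to 570). Mir181d was at 613 CPM in replicate 1 (1681 counts, interval 584 to 643) and 648 CPM in replicate 2 (1432 counts, 614 to 682). Mir181c was thus above Mir181d in replicate 1 and below it in replicate 2, and their ranges overlap. The means were 615 CPM ± 109 for Mir181c and 630 CPM ± 24.7 for Mir181d (SD, n = 2).

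In the chromosome 2 cluster nearly all counts were at Mir181b-2. It had 740 CPM in replicate 1 (2029 counts, interval 708 to 772) and 809 CPM in replicate 2 (1790 counts, 772 to 848). Mir181a-2 had 30.3 CPM in replicate 1 (83 counts, interval 24.1 to 37.5) and 24.0 CPM in replicate 2 (53 counts, 18.0 to 31.4). Mir181b-2 stood above its neighbour in both libraries, with means of 775 CPM ± 49.5 and 27.1 CPM ± 4.44.

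In the chromosome 1 cluster the balance was the other way round, with most counts at the a type. Mir181a-1 was at 281 CPM in replicate 1 (772 counts, interval 262 to 302) and 260 CPM in replicate 2 (574 counts, 239 to 282), a mean of 270 CPM ± 15.4. Mir181b-1 was at 7.65 CPM in replicate 1 (21 counts, interval 4.74 to 11.7) and 8.59 CPM in replicate 2 (19 counts, 5.17 to 13.4), a mean of 8.12 CPM ± 0.664. It was the only member under 10 CPM, and 4 members were at 100 CPM or more in both libraries.

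**Figure D2:**
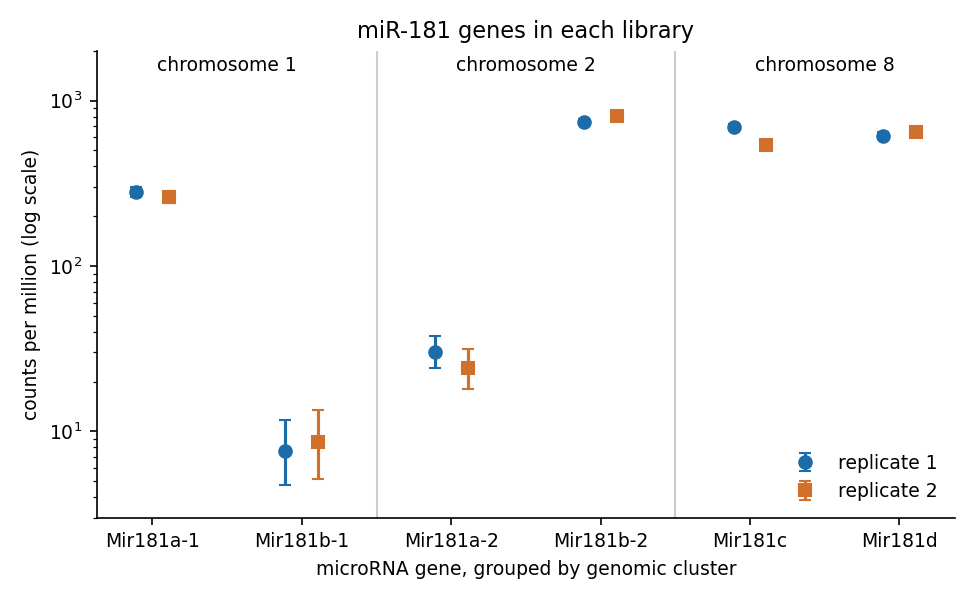
Level of the 6 miR-181 genes in CPM, on a log axis, in replicate 1 (circles) and replicate 2 (squares), grouped by genomic cluster; bars are 95% exact intervals for counting error. Mir181b-2, Mir181c and Mir181d lie between 539 and 809 CPM, Mir181a-1 at 281 and 260 CPM, and Mir181a-2 and Mir181b-1 at 30.3 CPM or less.

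Per 100 bases of annotated hairpin, the levels ran from Mir181d at 875 CPM ± 34.3 and Mir181b-2 at 870 CPM ± 55.6 through Mir181c at 691 CPM ± 122 and Mir181a-1 at 311 CPM ± 17.7 to Mir181a-2 at 35.7 CPM ± 5.85 and Mir181b-1 at 10.2 CPM ± 0.829 (SD, n = 2). On this scale Mir181d (851 and 899 CPM in replicates 1 and 2) and Mir181b-2 (831 and 910 CPM) overlap and cannot be ordered. Mir181c, at 778 and 605 CPM, was below both in each library, and the other neighbours in the order did not overlap. Annotated hairpins run from 72 to 89 bases, while the reads come from arms of 21 to 24 bases, so the scale affects the order at the top: in plain CPM Mir181b-2 was above Mir181d and Mir181c in both libraries, and Mir181c and Mir181d overlapped.

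Among all genes ordered by mean CPM, Mir181b-2 ranked 83, Mir181d 93, Mir181c 95, Mir181a-1 125, Mir181a-2 226 and Mir181b-1 279, and 629 genes had a count. Of those genes, 86.8% had a lower mean CPM than Mir181b-2 and 55.6% a lower one than Mir181b-1. Ranks are of counts and not of expression, since exact mature 5′ reads of the miR-181a and miR-181b genes are in no gene's count. With 2 libraries of 1 group a likeness of pattern cannot be measured, so the nearest genes were taken by mean CPM. Mir181b-2 lay between Mir665 (802 CPM ± 134) and Mir20a (761 CPM ± 5.51), and Mir181d between Mir485 (634 CPM ± 30.4) and Mir27a (618 CPM ± 71.9). Mir181c followed Mir27a and preceded Mir668 (611 CPM ± 17.3). Mir181a-1 lay between Mir499 (277 CPM ± 85.7) and Mir503 (270 CPM ± 38.3), and Mir181a-2 between Mir672 (27.4 CPM ± 4.16) and Mir3072 (26.9 CPM ± 6.75). In every case the neighbour's range over the 2 libraries overlapped that of the member.

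The copies of miR-181a and of miR-181b were counted unequally, and in opposite clusters. Mir181b-2 had 96.6 times the counts of Mir181b-1 in replicate 1 (interval 63.0 to 156) and 94.2 times in replicate 2 (60.1 to 157). Per 100 annotated bases the ratios were 86.8 and 84.7. Mir181a-1 had 9.30 times the counts of Mir181a-2 in replicate 1 (interval 7.41 to 11.8) and 10.8 times in replicate 2 (8.17 to 14.6), or 8.13 and 9.46 times per 100 annotated bases. The higher copy was on chromosome 2 for miR-181b and on chromosome 1 for miR-181a. Exact mature 5′ reads of these copies are in no gene's count. The ratios therefore cover only the remaining reads and do not show how the expression of the copies compares.

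Other microRNAs with a pair of loci for 1 mature sequence were set beside them, as a description with no test. The set was widened after the values were seen and need not be complete. It joins a chosen list with every pair of like-named genes of the table that alone share a mature sequence in RefSeq, and 28 of its 37 pairs had a count. Of these 28, the miR-181 pairs included, 18 had more than 3 counts at the lower copy in each library and so gave a ratio. Over both libraries, the 16 other pairs had ratios of 1.50 to 161 with a median of 2.87, against 95.5 for miR-181b and 9.90 for miR-181a. Mir196a-2 over Mir196a-1 stood above miR-181b at 161, with 2689 and 2312 counts in replicates 1 and 2 at Mir196a-2, against 17 and 14 at Mir196a-1. Between the miR-181 ratios lay Mir92-1 over Mir92-2 at 36.8, the muscle microRNA pair Mir1a-2 over Mir1a-1 at 19.3 and Mirlet7f-2 over Mirlet7f-1 at 17.1. So miR-181b was among the more unequal pairs of this set but not alone in it. Per 100 annotated bases the ratio was 194 for Mir196a, 85.8 for miR-181b and 8.65 for miR-181a, and Mir133a-1 over Mir133a-2, at 14.4, then stood above miR-181a. The 10 pairs without a ratio had 3 counts or fewer at the lower copy in a library, and could be more unequal than the counts show. The other pairs share stretches of 22 to 31 bases, and the miR-181 pairs lie within that span.

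**Figure D3:**
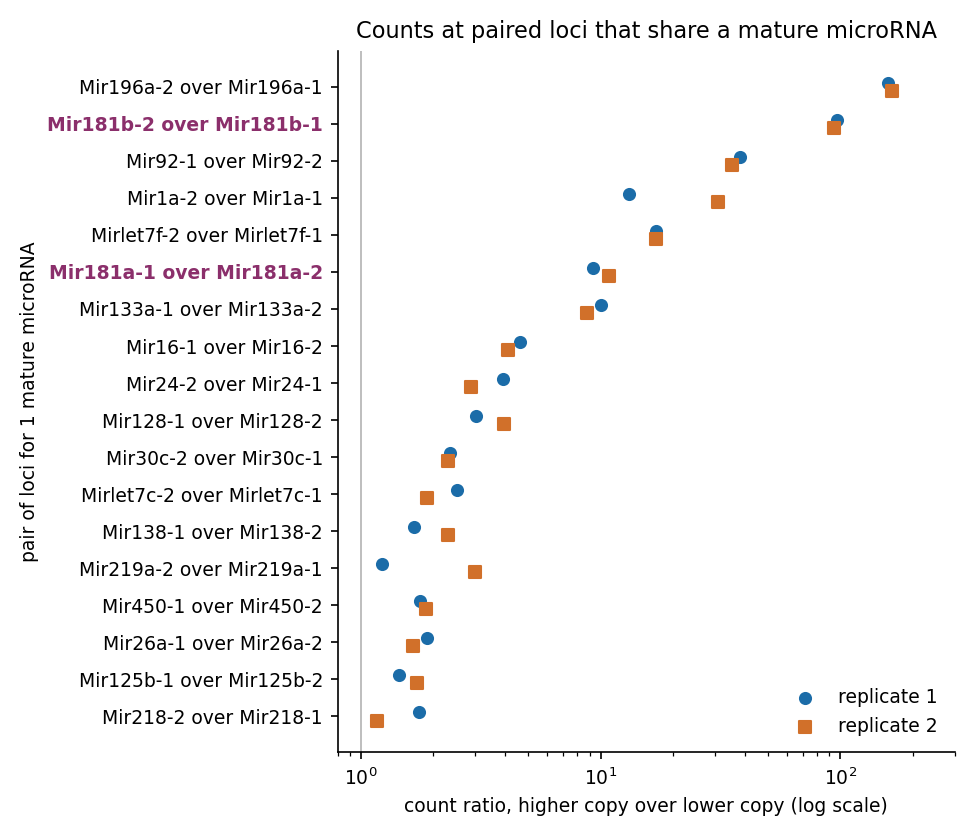
Ratio of the counts at the higher copy to those at the lower copy, on a log axis, in replicate 1 (circles) and replicate 2 (squares), for 18 pairs of loci that encode 1 mature microRNA. miR-181b stands at 96.6 and 94.2 and miR-181a at 9.30 and 10.8, while the 16 other pairs run up to 165, at Mir196a in replicate 2.

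The replicates were then compared, with each log2 ratio taken as replicate 1 over replicate 2. Each gene at 10 CPM or more in both libraries was tested by a two-sided exact binomial test on library sizes scaled by the trimmed mean of M-values (TMM), with Benjamini-Hochberg adjustment over all 258 such genes. Its p-values speak of these 2 libraries and of counting error alone. Mir181b-1 was under the filter, so 5 members were tested. Of these, 2 passed at an adjusted p under 0.05, beside a background of 51.9% of all genes tested (27.9% higher and 24.0% lower in replicate 1), so the share is not above that of other genes. Mir181c was higher in replicate 1, by 0.38 on the log2 scale or 1.30-fold (exact binomial test, adjusted p = 3.95e-12). Mir181b-2 was lower in replicate 1, at -0.11 on the log2 scale (exact binomial test, adjusted p = 0.0329), and with no filter on low counts it did not pass (log2 ratio -0.08, exact binomial test, adjusted p = 0.257).

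The other tested members did not pass. In the exact binomial test the adjusted p was 0.159 for Mir181a-1 (log2 ratio 0.13), 0.261 for Mir181a-2 (0.34) and 0.341 for Mir181d (-0.06). The median log2 ratio was 0.13 over the 5 members and 0.01 over all 258 genes, and the median absolute log2 ratio was 0.13 and 0.18. The absolute log2 ratio of Mir181c was above that of 84.1% of genes tested. Where the spread between the libraries was counted in, with edgeR's exact test and a common biological coefficient of variation of 12.6%, 0 members passed and 0 had an unadjusted p under 0.05. By that test 3 of all 258 genes (1.16%) passed after adjustment and 17 (6.59%) had an unadjusted p under 0.05. For Mir181c edgeR's exact test gave an adjusted p of 0.990. That spread was itself estimated from the same 2 libraries with 1 on each side, so few calls are built into this test, and it does not show that the libraries were alike.

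**Figure D4:**
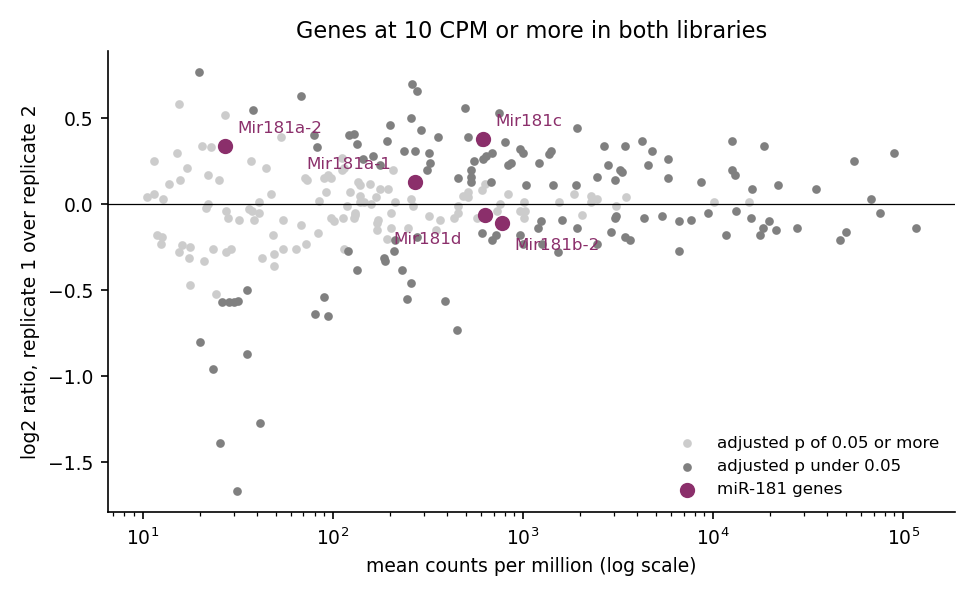
Log2 ratio of replicate 1 over replicate 2 against mean CPM (log axis) for the 258 genes tested; dark points passed the exact binomial test. The 5 tested miR-181 genes, in colour, lie between -0.11 (Mir181b-2) and 0.38 (Mir181c).

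Markers of other cells were set beside these differences. The endothelial Mir126a, the one endothelial gene tested, stood at 98087 CPM in replicate 1, against 80432 CPM in replicate 2 (log2 ratio 0.30), and its partner Mir126b had 4 counts in each. The leukocyte list of 6 genes, chosen because miR-181 acts in lymphocytes, came to a summed 1547 CPM in replicate 1, against 1549 CPM in replicate 2. That is 0.655 and 0.677 times the family's counts, which leave out exact mature miR-181a-5p and miR-181b-5p reads. Of the leukocyte list's 5 tested members 1, Mir146, was higher in replicate 1 (log2 ratio 0.20, exact binomial test, adjusted p = 0.000979) and 0 lower. Their median was -0.05, where 27.9% of all genes tested were higher and 24.0% lower. The neuron list of 11 genes came to a summed 944 CPM in replicate 1, against 1099 CPM in replicate 2. Most of that sum was Mir128-1, at 670 and 770 CPM in replicates 1 and 2, and Mir128-2, at 222 and 195 CPM. The list's 5 tested members had log2 ratios from -1.67 to 0.20. Their median was -0.80, against 0.01 over all genes tested. All 3 Mir124a genes, Mir9-1 and Mir9-2 were at 0 in both libraries. Since the counts leave out any read that maps to more than 1 place, these 0 values do not show absence. The Mir128 pair shares a mature sequence and 23 bases, and the Mir138 pair a mature sequence and 24 bases. Exact reads of these shared sequences are left out too, so the neuron sum is of counts and not of expression. Of the neuron list's 5 tested members 0 were higher and 4 lower in replicate 1, against the same 27.9% and 24.0% of all genes. The part of these cells in the differences of Mir181c and Mir181b-2 was not tested.

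The muscle list held 7 tested genes, 2 higher and 3 lower in replicate 1, with a median log2 ratio of 0.02; over all genes tested, 27.9% were higher and 24.0% lower. A list of 15 other microRNA genes known to act on myoblast differentiation held 13.5% of counts in replicate 1 and 14.6% in replicate 2. That is 57.1 and 63.9 times the counts of the miR-181 family, which leave out exact mature miR-181a-5p and miR-181b-5p reads. The list's own pairs of Mir24, Mir26a and Mir29b genes share mature sequences, and exact reads of these are likewise in no gene's count. The ratio to the family and the order of genes within the list are therefore of counts and not of expression. All 15 genes of the list had a count. Of the list's 13 tested genes 4 were higher and 3 lower in replicate 1, shares near those of all genes, with a median log2 ratio of -0.03. The highest were Mir378a, from an intron of Ppargc1b, at 117291 CPM ± 8973, Mir322, which drives myoblasts out of the cell cycle, at 13175 CPM ± 388, and Mir27b, which represses Pax3, at 4750 CPM ± 687.

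Within a cluster, the ratio of the neighbours does not depend on how the libraries are scaled. Mir181c had 1.13 times the counts of Mir181d in replicate 1 (interval 1.06 to 1.21) and 0.832 times in replicate 2 (0.770 to 0.899). The first ratio was 1.36 times the second (exact conditional interval for counting error 1.23 to 1.50), so the balance of these hairpins, 85 bases apart, shifted between the libraries by more than counting error. Mir181b-2 had 24.4 times the counts of Mir181a-2 in replicate 1 and 33.8 times in replicate 2, a ratio of 0.724 (interval 0.500 to 1.04). Mir181a-1 had 36.8 and 30.2 times the counts of Mir181b-1, a ratio of 1.22 (interval 0.612 to 2.40). For these clusters the intervals include no shift, and the rarer hairpin rests on 83 counts or fewer per library.

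The size of these shifts was set beside that of other adjacent microRNA genes. This comparison was chosen after the values were seen and has no test. Over 91 adjacent pairs on 1 strand within 10 kb, both genes at 10 CPM or more, the median absolute log2 change of the pair's ratio was 0.19 and the highest 0.84. Mir181c and Mir181d, at 0.44, came 19th from the largest, and Mir181a-2 and Mir181b-2, at 0.47, came 16th. Both lie above the median of adjacent pairs. For Mir181a-2 and Mir181b-2 the interval given above includes no shift, and Mir181a-2 had only 83 and 53 counts in replicates 1 and 2.

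**Figure D5:**
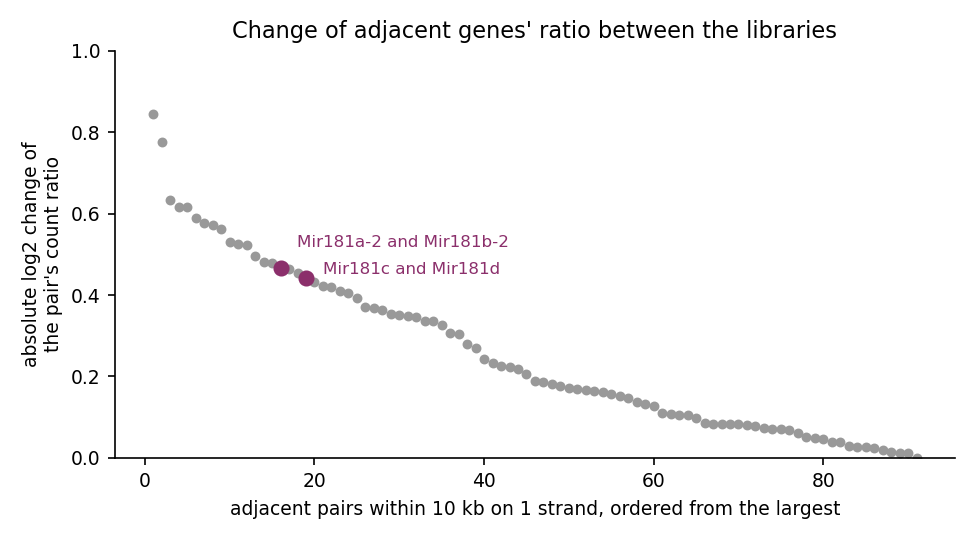
Absolute log2 change, between the 2 libraries, of the count ratio within each of 91 adjacent pairs of microRNA genes, ordered from the largest. The chromosome 8 pair of the miR-181 family stands at 0.44 and the chromosome 2 pair at 0.47, against a median of 0.19.

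Few other microRNA genes lie near the family. No microRNA gene of the table other than the partner starts within 50 kb of the chromosome 1 and chromosome 2 pairs. On chromosome 8, the cluster of Mir23a, Mir27a and Mir24-2 starts 29645 bases from the start of Mir181c, on the opposite strand. Mir23a was at 21316 CPM ± 1742, Mir27a at 618 CPM ± 71.9 and Mir24-2 at 122 CPM ± 22.8. Between the libraries Mir27a (log2 ratio 0.26, exact binomial test, adjusted p = 4.31e-06) and Mir24-2 (log2 ratio 0.40, exact binomial test, adjusted p = 0.00192) were higher in replicate 1, as Mir181c was. Mir23a was lower (log2 ratio -0.15, exact binomial test, adjusted p = 1.58e-61). Gm25110 and Mir3074-2, annotated in the same stretch, had 0 counts in both libraries. Mir24-2 shares a mature sequence and 28 bases with Mir24-1, and Mir3074-2 a mature sequence and 30 bases with Mir3074-1. Exact reads of these shared sequences are in no gene's count, so the counts of Mir24-2 and Mir3074-2 do not show their expression.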

How the data were processed

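Small RNA of gastrocnemius was measured in 1 group of 2 libraries. The authors deposited whole-number read counts per microRNA gene, 1 library per table, for reads on either strand, the gene's own strand and the opposite strand, made on mm10 with the M21 annotation per the file headers of the deposited notes. For the aligner and the counter, names and settings are not given in the sources used here. That the own strand is the second column of counts was read from the values. In that column 629 genes had a count in a library, against 58 in the third, and it holds 0 ambiguous reads. Lines that name no gene (unmapped, several loci, outside genes) held 72.7% and 73.0% of reads in replicates 1 and 2 and stayed out of CPM and tests.

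All 2202 identifiers were found in GENCODE M21, which gave symbols, coordinates and hairpins, and sequences came from RefSeq. TMM sizes, edgeR 4.0.16 with an intercept-only dispersion and DESeq2 1.42.0 size factors were computed in R 4.3.3, and exact tests with scipy 1.17.1, tested on simulated data. Log2 ratios are on log2(CPM + 1). edgeR's quasi-likelihood test was not used, since 1 group holds no contrast. Named genes were the members, microRNA genes within 50 kb, the next genes by mean CPM and up to 3 per list. The members and lists were chosen with earlier results of these data known.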

Additional observations from a re-analysis of the deposited data

How the results depend on the processing

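The family share of 0.233% was 0.303% with either strand counted, 0.263% without Mir378a, the most abundant gene, and 0.0631% of all reads, and 0.229% to 0.236% with 1 library left out. The members' counts were the same on either strand, so the first change lies in the total. Of the 5 members tested, 2 differed between replicates, 1 (Mir181c) of 6 with no filter on low counts, and 0 by edgeR's exact test. At 100 CPM or more 3 of 4 passed, Mir181d included (log2 ratio -0.11, exact binomial test, adjusted p = 0.0424), where 118 of 178 genes (66.3%) did. With total counts or DESeq2 size factors 2 passed, and TMM moved log2 ratios by 0.02. No log2 ratio of a tested member changed sign under these settings. With no filter 129 of 629 genes (20.5%) passed. Leaving out a library leaves no comparison between them. No paired analysis was possible because there is 1 group. Counting error is largest, relative to the level, for Mir181b-1 and Mir181a-2. Their exact mature 5′ reads are in no gene's count, which more depth would not change.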
